A study of Mus musculus with 6 samples.

Results

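Metabotropic glutamate receptors are G protein-coupled receptors that sense glutamate at the synapse and tune transmission over a slower time scale than the ion channel receptors. Transcripts of 6 of these receptor genes, Grm2, Grm3, Grm4, Grm5, Grm7 and Grm8, were followed in whole cerebellum. They were taken by gene symbol from a table of 41228 entries, each of the 6 symbols occurred, and all 6 passed the filter on low counts that left 15457 genes. The other receptors of the family were not analysed here. The series asks what SnoN, a transcriptional regulator encoded by Skil that binds Smad proteins, does in the postnatal cerebellum. RNA came from C57BL/6 mice at 6 days of age, 3 wild type and 3 labelled SnoN cKO, a conditional knockout of SnoN, with 1 library per animal. The labels name neither the Cre driver nor the deleted exons, so the cells that lost SnoN are not known from the sources used here.

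The receptors fall into classes by sequence and coupling. Group I, here Grm5, acts through Gq, phospholipase C and calcium release and is anchored by Homer scaffolds on the postsynaptic side. Group II (Grm2 and Grm3) and group III (Grm4, Grm7 and Grm8) act through Gi/o proteins, which lower cyclic AMP and inhibit calcium channels, and many of them sit on axon terminals. In the cerebellum Grm2 is known from Golgi cells and unipolar brush cells, Grm3 from glia and inhibitory interneurons, Grm4 from the parallel fibre terminals of granule cells, and Grm5 from Golgi cells and young astrocytes. Grm7 is a widespread presynaptic receptor, and Grm8 is a presynaptic receptor of the same group.

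The classes can be read in the coding sequence. Between members of group III the aligned coding sequences were identical at 67.4% to 68.2% of bases, and Grm2 and Grm3 at 65.8%. Pairs from different groups were identical at 50.3% to 55.2%. These coding sequences come from GENCODE M21, an annotation of GRCm38. Over all annotated transcripts, on either strand, the longest run shared by any pair was 27 bases, between Grm3 and Grm4, and no pair shared a run of 36 bases. Libraries were made with a kit that keeps no strand information, per the labels. Exons of Grm2 overlapped a gene on the opposite strand, Gm28111, over 470 of 4894 bases, and those of Grm7 overlapped Gm20387 over 130 of 5886 bases. In the deposited table Gm28111 had at most 4 counts in a library and Gm20387 between 15 and 21.

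Libraries held between 12605870 and 17757711 counts on genes, of which the 6 receptors together took between 4442 and 5716. In SnoN cKO 3 a single gene, Gm42418, took 3.75% of the counts, while the top gene of any other library took at most 0.692%. The genes that mark cerebellar tissue, among them the homeobox gene En2, the zinc finger gene Zic1 and the Purkinje cell gene Pcp2, all passed the filter, 5 of 5. Skil was at 89.5, 87.5 and 88.9 CPM (wild type) and 76.0, 74.7 and 77.5 CPM (SnoN cKO). CPM are counts per 1000000 counts of the library, whose totals were scaled by the TMM method (trimmed mean of M values). It was lower in each SnoN cKO library, with a fitted log2 fold change of -0.22 (SE 0.04) and an adjusted p of 0.637 by edgeR's quasi-likelihood test over all genes. 2 libraries went against their labelled sex. The library labelled SnoN cKO 1, female, had 35 Xist counts and 1146 counts of the Y-linked gene Ddx3y, while SnoN cKO 2, labelled male, had 37467 and 0. Only wild type 1 and SnoN cKO 2 were high in Xist. SnoN cKO 2 also stood apart in choroid plexus genes, whose summed level was 46.3 CPM there and 1773 to 3422 CPM in the other libraries. The libraries labelled SnoN cKO 1 and 2 carry the same genotype label, so an exchange between them would leave the genotype comparison unchanged. Whether the mismatch arose in this way was not tested.

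Receptor levels differed widely from each other. Per kilobase of exon in the GENCODE M21 gene models, Grm3 stood highest at 38.5 ± 1.68 CPM per kilobase (SD, n = 6 libraries of both genotypes). Grm4 followed at 13.7 ± 1.34 and Grm5 at 9.57 ± 1.13 CPM per kilobase. Then came Grm7 at 4.36 ± 0.556, Grm2 at 3.36 ± 0.359 and Grm8 at 0.499 ± 0.103 CPM per kilobase. The ranges of neighbours in this order did not overlap, except those of Grm7 (3.56 to 5.11) and Grm2 (2.86 to 3.77). The place of Grm5 depends on the length used, since 3612 of its 10247 exon bases are coding. Per kilobase of coding sequence alone, Grm4 spanned 25.8 to 34.6 and Grm5 22.8 to 32.2 CPM per kilobase, which overlap, and Grm7 (7.58 to 10.9) and Grm2 (5.35 to 7.05) no longer did. Grm3 led and Grm8 came last on both scales. The deposited counts were made with another genome build, so these lengths are approximate.

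**Figure D1:**
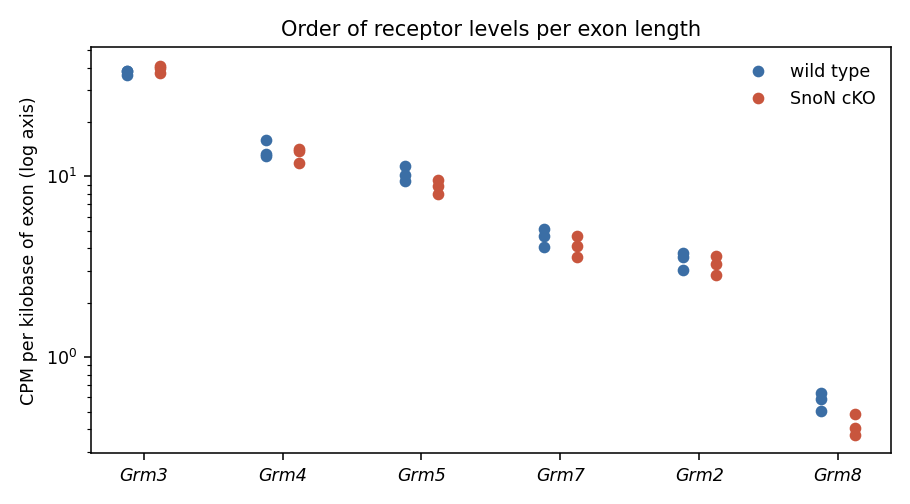
Level of each receptor gene in CPM per kilobase of exon, on a log axis, with 1 point per library and the genotypes side by side. Grm3 sits at 36.4 to 40.9 in every library and Grm8 at 0.372 to 0.637, with the other genes in between.

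Counted as a share of all reads on the 6 genes, Grm3 took 32.4% ± 0.697 in wild type and 35.9% ± 2.82 in SnoN cKO (SD, n = 3 each). Grm5 took 29.8% ± 2.48 and 27.0% ± 1.16, and Grm4 23.7% ± 2.91 and 23.8% ± 1.53. Grm7, Grm2 and Grm8 held the rest, at 7.65%, 4.78% and 1.62% in wild type. Most receptor reads in the cerebellum of this age were thus of Grm3, Grm5 and Grm4.

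The comparison of SnoN cKO with wild type asks whether loss of SnoN moved any of these receptors. None passed edgeR's quasi-likelihood test after Benjamini-Hochberg adjustment over all genes, and neither did any other gene, so the background is 0% called. 5 of the 6 receptors had a negative log2 fold change, with a median of -0.13 over the 6. Over all 15457 genes 7877 were negative and the median was -0.00. limma-voom called 0 genes. DESeq2 called 4 (Ncan, Eln, Ank2 and Map1b, named after their values were seen) of the 1812 genes to which it gave an adjusted p, and the receptors were not among those 1812. Its unadjusted p was 0.00462 for Grm5 and 0.0663 for Grm8. Grm5 and Grm8 were the 2 receptors with an unadjusted p under 0.05, both lower in SnoN cKO, against 1187 genes in all or 7.68%. Whole tissue was sequenced, so fewer cells of a type and less RNA per cell cannot be told apart. The labels name separate animals. edgeR's p-values set the genotype difference against the spread between animals, which is estimated in part from all genes.

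Grm5, the group I receptor, was at 116, 105 and 96.6 CPM in wild type 1, 2 and 3. In SnoN cKO 1, 2 and 3 it was at 97.8, 82.3 and 91.1 CPM. Wild type 1 was the highest and SnoN cKO 2 the lowest of all libraries, and the genotypes overlapped only in that SnoN cKO 1 exceeded wild type 3. edgeR put the log2 fold change at -0.23 (SE 0.08), or -14.6%, with a 95% interval from -24.4% to -3.58%. Its unadjusted p was 0.016 and its adjusted p 0.637 by edgeR. This interval, like the others given for single genes, is not corrected for the number of genes tested. The unadjusted p was 0.0781 without wild type 1 and 0.055 without SnoN cKO 2. Without both the log2 fold change was -0.09 (SE 0.06).

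**Figure D2:**
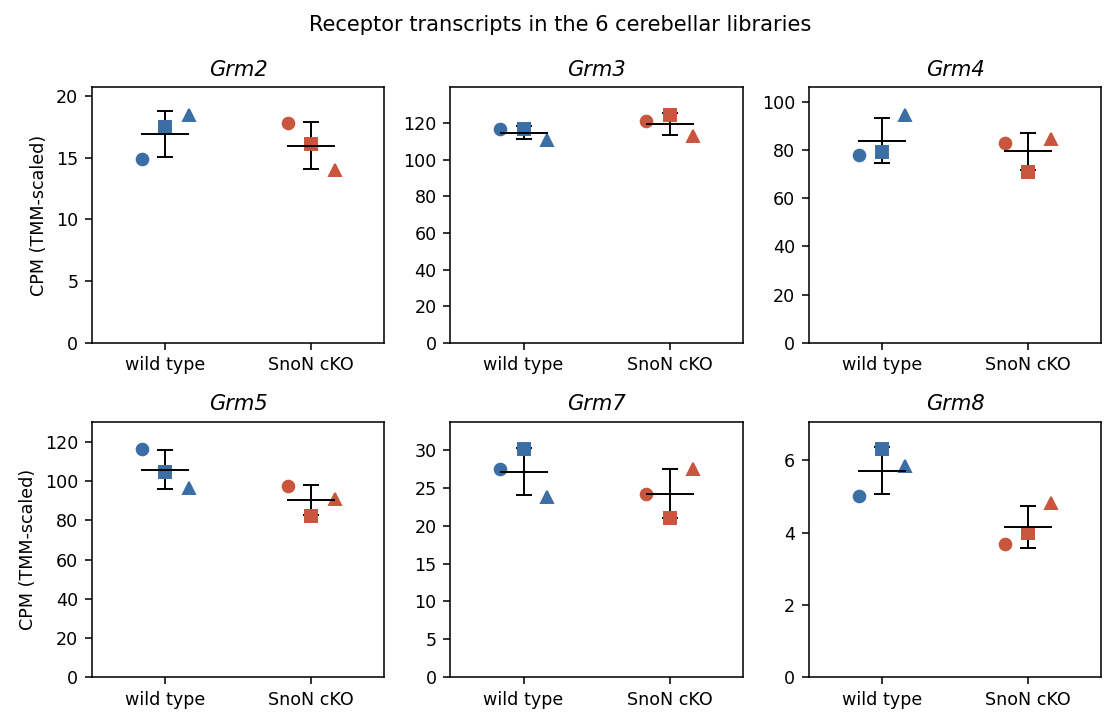
CPM of each receptor gene by genotype, with 1 panel per gene and an axis that starts at 0; circles, squares and triangles are replicates 1, 2 and 3, and black bars are the mean and SD of 3 libraries. Only for Grm8 do all SnoN cKO libraries (3.68 to 4.81) lie below all wild type libraries (5.01 to 6.31).

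In group II, Grm3, the glial and interneuron receptor, varied least. Its levels were 117, 117 and 111 CPM (wild type) and 121, 125 and 113 CPM (SnoN cKO). The genotypes overlapped, and the coefficient of variation over all 6 libraries was 4.36%, where counting error alone gives 2.47%. The log2 fold change was 0.06 (SE 0.05), with a 95% interval from -3.77% to 12.8%. A change of Grm3 as large as the estimate for Grm5 lies outside that interval. Grm2, the Golgi cell receptor, was at 14.9, 17.5 and 18.5 CPM (wild type) and 17.8, 16.1 and 14.0 CPM (SnoN cKO). Its highest library was wild type 3 and its lowest SnoN cKO 3, with the others mixed between. Its log2 fold change was -0.09 (SE 0.12), and the 95% interval ran from -21.7% to 12.6%.

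In group III, Grm4, the parallel fibre receptor, was at 77.8, 79.1 and 94.7 CPM (wild type) and 82.9, 70.8 and 84.7 CPM (SnoN cKO). Wild type 3 was high and SnoN cKO 2 low, while the other 4 libraries lay between 77.8 and 84.7 CPM. The log2 fold change was -0.08 (SE 0.09), and without wild type 3 it was 0.02 (SE 0.08). Grm7 was at 27.5, 30.1 and 23.9 CPM (wild type) and 24.2, 21.0 and 27.5 CPM (SnoN cKO). Its libraries were mixed, and the log2 fold change was -0.16 (SE 0.11), with a 95% interval from -24.9% to 6.27%. The adjusted p of Grm2, Grm3, Grm4 and Grm7 lay between 0.716 and 0.848 by edgeR.

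Grm8, the least abundant receptor, had 64, 95 and 75 counts in wild type and 47, 59 and 82 in SnoN cKO. Scaled, these were 5.01, 6.31 and 5.85 CPM against 3.68, 3.99 and 4.81 CPM. Each SnoN cKO library was below each wild type library. Such a separation was seen for 1 of the 6 receptors and for 13.7% of all genes tested. edgeR put the log2 fold change at -0.45 (SE 0.16), or -26.9%, with a 95% interval from -43.0% to -6.39%. The unadjusted p was 0.0181 and the adjusted p 0.637 by edgeR. Without wild type 2 the unadjusted p was 0.0742, and without SnoN cKO 1 it was 0.0555. Counting error is large for this gene. It alone gives a coefficient of variation of 11.5% in wild type and 13.0% in SnoN cKO, where the libraries varied by 11.5% and 14.0%. Over all 6 libraries Grm8 varied by 20.6%, against 12.2% from counting.

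**Figure D3:**
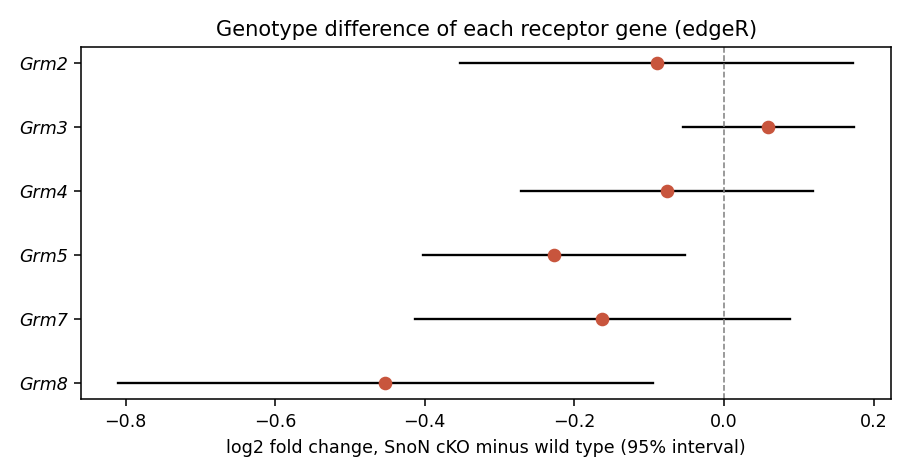
Log2 fold change of each receptor gene, SnoN cKO minus wild type, as points with unadjusted 95% intervals from the edgeR fit. The intervals of Grm5 (-0.40 to -0.05) and Grm8 (-0.81 to -0.10) lie below 0, and the other 4 include it.

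Summed over the classes, group II was at 132, 135 and 129 CPM (wild type) and 139, 141 and 127 CPM (SnoN cKO). Group III was at 110, 116 and 124 CPM against 111, 95.8 and 117 CPM. Both overlapped between genotypes. The sum of all 6 receptors was 358, 355 and 350 CPM (wild type) and 348, 319 and 335 CPM (SnoN cKO). With TMM scaling it was lower in each SnoN cKO library, but narrowly, with wild type 3 at 350 and SnoN cKO 1 at 348 CPM. The separation depends on that scaling. Over plain library totals SnoN cKO 1 (4442 of 12639806 counts) lay above wild type 3 (4495 of 12815564), so the genotypes overlapped. Of single genes tested, 13.7% were separated by genotype, in either direction, and the sum itself was not tested. Most of the difference between the mean sums lay in Grm5, whose mean was 106 CPM (wild type) and 90.4 CPM (SnoN cKO). The ranges of Grm5 itself overlapped between genotypes.

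Ratios between receptors within a library do not depend on how the libraries are scaled. The genotypes did not overlap in 3 of 15 ratios, where 13.1% of the ratios of all pairs of tested genes were separated in this way. Grm5 over Grm3 was 0.997, 0.893 and 0.871 in wild type and 0.805, 0.660 and 0.805 in SnoN cKO. The other separated ratios were those of Grm8 to Grm3 (0.0498 ± 0.00603 against 0.0349 ± 0.00661, SD, n = 3) and of Grm8 to Grm4 (0.0686 ± 0.00974 against 0.0525 ± 0.00705). With 3 libraries a side the smallest two-sided p of an exact permutation test is 0.1, and none was run.

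Markers of several cell types and of neighbouring tissues differed between the libraries. For the list of unipolar brush cells and cerebellar nuclei, 8 of 8 genes were tested and all were negative. Their summed level was 243 to 284 CPM in wild type and 154 to 231 CPM in SnoN cKO, lowest in SnoN cKO 2. None of the 8 was at 0 in any library, and Lhx9 was at 22.4 CPM in wild type 1 against at most 5.30 CPM elsewhere. For the list of brainstem and midbrain, 5 of 10 genes were tested, all negative, with a summed level of 8.57 to 14.2 CPM against 3.79 to 8.39 CPM. Hoxa5 and Hoxb3, homeobox genes of the caudal hindbrain, were at 0 in SnoN cKO 2. A low gene may pass the filter through its wild type libraries alone and must then be negative. All 6 choroid plexus genes were negative, and the thyroid hormone carrier gene Ttr, the most abundant of them, was at 17.3 CPM in SnoN cKO 2 against 1641 to 3209 CPM elsewhere. The 5 genes of the meninges were all negative too, with a summed level of 530 to 647 CPM in wild type and 478 to 574 CPM in SnoN cKO. Unipolar brush cells, in the first list, are among the cells known to carry Grm2. That list joins them with the cerebellar nuclei, so its sum does not describe unipolar brush cells alone. Its log2 fold changes ran from -1.96 (Lhx9) to -0.04 (Tbr1), with -0.09 (SE 0.10) for the brush cell factor Eomes. The Golgi cell and interneuron list, 3 genes positive and 5 negative, summed to 551 to 585 CPM (wild type) and 552 to 561 CPM (SnoN cKO). For astrocytes and Bergmann glia, 7 positive and 2 negative, the sum was 3772 to 3850 CPM against 4000 to 4330 CPM. All 7 genes of granule neuron precursors were positive, with 1913 to 2120 CPM against 2017 to 2318 CPM. Maturing granule neurons had 4 positive and 4 negative genes. All tested genes of Purkinje cells (7), microglia (6) and cerebellar identity (5) were positive. The oligodendrocyte and endothelial lists held both signs. Without wild type 1 and SnoN cKO 2 the log2 fold change of Grm8 was -0.50 (SE 0.19). That pair holds the highest wild type and the lowest SnoN cKO value of Grm5 and the lowest wild type value of Grm8, so leaving it out brings Grm5 nearer to 0 and does not do so for Grm8 whatever the tissue markers do. The part of these cells and tissues in the values of Grm5 and Grm8 was not tested.

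**Figure D4:**
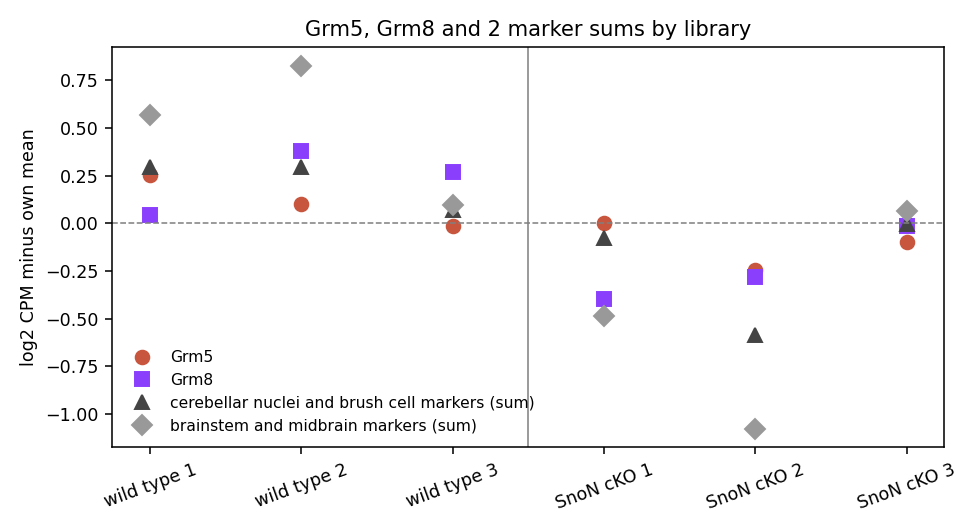
Log2 CPM minus its own mean over the 6 libraries for Grm5, Grm8 and the summed markers of cerebellar nuclei with unipolar brush cells and of brainstem with midbrain. SnoN cKO 2 is the lowest library for Grm5 (82.3 CPM) and for both marker sums (154 and 3.79 CPM), and SnoN cKO 1 is the lowest for Grm8 (3.68 CPM).

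The genes whose levels followed a receptor most closely over the 6 libraries were looked for among 149 listed pathway and cell type genes. Likeness was the root mean square difference between log2 profiles, each centred on its own mean, and the points share the same 6 libraries. Grm3 was closest to Kdr, an endothelial growth factor receptor, and to Cspg4, a proteoglycan of oligodendrocyte precursors, at 0.03 and 0.04. Grm7 was closest to Gad2, which makes the inhibitory transmitter GABA, and to Frmpd4, a scaffold of group I receptors, at 0.04 and 0.06. Grm5 was closest to the Gi family gene Gnaz and to the orphan class C receptor Gprc5c, at 0.06 and 0.07. Grm4 was closest to the channel gene Trpc1 and to Eomes, a factor of unipolar brush cells, at 0.07 and 0.08. Grm2 was closest to the adenylyl cyclase gene Adcy3 and the scaffold gene Shank2, both at 0.07. Grm8 was closest to the calcium sensor gene Vsnl1 and to Slc6a5, the glycine transporter of Golgi cells, at 0.15 and 0.16. This distance grows with the spread of the receptor itself, which on the same scale was 0.06 for Grm3, 0.13 to 0.17 for Grm2, Grm4, Grm5 and Grm7, and 0.27 for Grm8. The median over the 149 genes was 0.12 for Grm3 and between 0.17 and 0.29 for the other receptors.

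Genes of the proteins that carry or shape the receptor signal were read from the same fit. Of 70 listed pathway genes 69 were tested, 24 with positive and 45 with negative log2 fold changes and a median of -0.04. None passed edgeR's test over all genes, with adjusted p between 0.637 and 0.998. At an unadjusted p under 0.05 there were 11, 3 higher and 8 lower, which is 15.9% against 7.68% of all genes. The ranges of the genotypes were separate for 14 of the 69, or 20.3%, against 13.7% of all genes. The lists were chosen with earlier results of these data known, so neither share is a test of the pathway.

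Downstream of group I, 10 of 11 genes of Gq coupling and calcium release were tested, 5 positive and 5 negative, with a median of -0.00. Plcb1, a phospholipase C, was at 88.2 ± 4.21 CPM (wild type) and 80.4 ± 3.66 CPM (SnoN cKO) (SD, n = 3). Its relative Plcb3 was at 49.9 ± 2.54 and 52.1 ± 2.28 CPM. Among 11 scaffold genes 4 were positive and 7 negative, with a median of -0.02. Shank1, which links Homer to the postsynaptic density, was at 270 ± 6.69 CPM (wild type) and 239 ± 15.2 CPM (SnoN cKO), for which the log2 fold change was -0.18 (SE 0.05). Siah1a, a ubiquitin ligase that binds group I receptors, was at 31.6 ± 1.36 and 34.5 ± 1.18 CPM. The genotypes were separate for 4 of the 11 scaffold genes, Shank1, Dlgap1 and Ncdn with lower and Siah1a with higher values in SnoN cKO. Such a separation was seen for 13.7% of all genes tested, and each of the other pathway lists held 1 to 3 such genes.

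For the Gi/o side that groups II and III use, 6 of 17 genes were positive and 11 negative, with a median of -0.07. Gnai3, a Gi subunit, was at 178 ± 2.59 CPM (wild type) and 188 ± 3.76 CPM (SnoN cKO), and Gnaz at 63.7 ± 4.36 and 56.9 ± 4.56 CPM. Of 5 partners of group III receptors 2 were positive and 3 negative, with a median of -0.03. Ppp1cc, a phosphatase subunit that binds the tail of the Grm7 receptor, was at 26.0 ± 1.21 CPM (wild type) and 30.0 ± 1.23 CPM (SnoN cKO) (log2 fold change 0.21, SE 0.07). Elfn2, an adhesion protein that binds group III receptors across the synapse, was at 37.8 ± 4.47 and 33.0 ± 3.53 CPM.

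Genes of desensitisation were 5 positive and 5 negative (median -0.00). The receptor kinase gene Grk6 was at 82.7 ± 2.55 CPM (wild type) and 90.0 ± 4.58 CPM (SnoN cKO), and its relative Grk4 at 6.17 ± 1.30 and 4.80 ± 0.219 CPM. All 7 other class C receptor genes were negative, with a median of -0.13. The calcium-sensing receptor gene Casr was the lowest of them by p, at 2.82 ± 0.574 (wild type) and 1.93 ± 0.147 CPM (SnoN cKO). Genes that supply or clear glutamate were positive in 2 and negative in 7 of 9 cases, with a median of -0.16. The astrocyte glutamate transporter genes Slc1a3 and Slc1a2 had the smallest p of this list in each direction. Their opposite signs follow from that choice, and the adjusted p of each was 0.637 by edgeR's test. Slc1a3 was at 1282 ± 17.5 CPM (wild type) and 1406 ± 106 CPM (SnoN cKO), higher by 0.13 on the log2 scale (SE 0.05). Slc1a2 was at 331 ± 12.2 and 297 ± 13.0 CPM, with -0.16 on the log2 scale (SE 0.05).

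**Figure D5:**
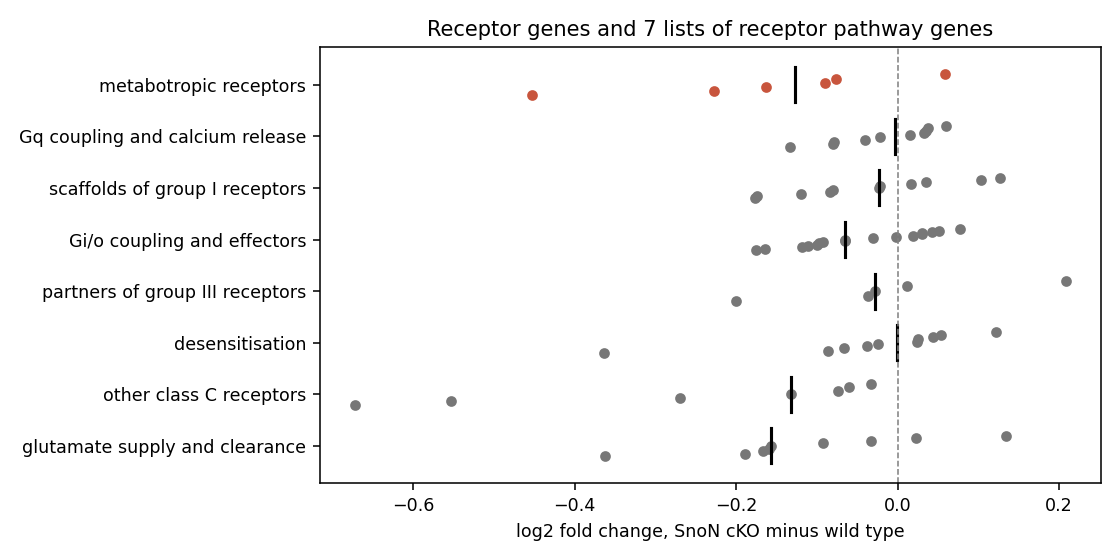
Log2 fold change, SnoN cKO minus wild type, of the 6 receptor genes and of the tested genes in 7 pathway lists, with 1 point per gene and a black bar at each median. Medians run from -0.16 for glutamate supply and clearance to -0.00 for Gq coupling and desensitisation, and no point passed the adjusted test.

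The labelled sex, 1 female and 2 males in each genotype, was fitted beside genotype. No receptor passed edgeR's test, with an adjusted p of 0.999 for each of the 6, against a background of 0.00647% of genes called, which is the single gene Ide, named after its value was seen. By label, Grm5 was at 107 CPM on average in the 2 libraries labelled female and 93.6 CPM in the 4 labelled male, which as male minus female is -0.19 on the log2 scale (SE 0.06). At an unadjusted p under 0.05 Grm5 was the only receptor, against 2.52% of all genes. That difference does not describe sex, since Xist and Ddx3y went against the label of 2 of the libraries. With the level of Xist as a covariate in place of the label, which was added as an alternative once the data had been seen, the genotype log2 fold changes of Grm5 and Grm8 were -0.23 and -0.45.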

How the data were processed

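RNA of 6 cerebella had been sequenced as single-end reads. The authors deposited 1 table of raw counts for genes, made with mm9, STAR 2.0.4b, featureCounts 1.4.5 and Subread, as the submitters' processing notes list them without roles. The gene annotation is not given in the sources used here. The annotation at hand was of GRCm38, so no coordinates are given. Entries that repeated a symbol with the same counts (140, 0.465% of counts) were kept once, and genes were read by symbol.

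Low genes were left out by filterByExpr at its default minimum count of 10. edgeR 4.0.16 in R 4.3.3 fitted genotype to all 6 libraries with TMM scaling and the quasi-likelihood test, two-sided, at an adjusted p of 0.05. The script was tested on simulated data. Intervals come from the SE and the total degrees of freedom of edgeR's test (9.925, of which 4 are residual), as its p-values do; the planned intervals used the 4 residual ones. With those the log2 intervals would be -0.45 to -0.0096 for Grm5 and -0.90 to -0.0078 for Grm8, and the other 4 would still include 0. The common biological coefficient of variation was 9.71%. No pair of libraries agreed within sampling noise (15 pairs, chi-square per degree of freedom at least 2.80).

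The members and lists were chosen with earlier results of these data known. Named pathway genes are those with the smallest p in each direction of a list. In the list of other class C receptors no gene was positive. Alternatives were other scalings, no filter, DESeq2 1.42.0, limma-voom (limma 3.58.1), covariates, a replicate block and libraries left out. One listed gene that was not tested, and the sequences of the receptor genes, are not reported here.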

Additional observations from a re-analysis of the deposited data

How the results depend on the processing

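Each receptor stayed short of the adjusted threshold in the genotype comparison under every alternative run that gave it an adjusted p. DESeq2 gave the receptors none. The count of genes called, 0 in the edgeR fit, was 39 without the filter on low counts, 4 by DESeq2 (Ncan, Eln, Ank2 and Map1b, named after their values were seen), 1 with labelled sex as a covariate (Ide) and 0 by limma-voom. With the replicate number as a block it was 0, with log2 fold changes of -0.23 for Grm5 and -0.46 for Grm8. Deviations of same-numbered libraries had correlations of -0.0404, -0.324 and -0.183, and those of unlike number -0.174 to 0.39. Such values cannot show whether samples were collected or prepared in pairs. With 1 library left out the count was 0 each time. The log2 fold changes then ranged from -0.17 to 0.0057 for Grm2, 0.03 to 0.11 for Grm3, -0.13 to 0.019 for Grm4, -0.29 to -0.15 for Grm5, -0.26 to -0.07 for Grm7 and -0.57 to -0.37 for Grm8. The sign of Grm4 turned without wild type 3 (0.019) or SnoN cKO 2 (0.00061), and that of Grm2 without SnoN cKO 3 (0.0057). For these genes it is therefore not settled.

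For labelled sex the count, 1 by edgeR, was 158 without the filter, 2 by DESeq2 (Ide and Hba-a1), 0 with library totals only, 0 by limma-voom and 0 to 6 with 1 library left out. Then Grm2 ranged from -0.24 to 0.27, Grm3 from -0.06 to -0.0002, Grm4 from -0.093 to 0.16, Grm5 from -0.22 to -0.16, Grm7 from -0.098 to 0.068 and Grm8 from 0.22 to 0.32. With library totals only Grm2 was at -0.020. Per kilobase of exon the mean shares of Grm3, Grm4, Grm5, Grm7 and Grm8 moved from 34.2%, 23.7%, 28.4%, 7.45% and 1.43% to 55.1%, 19.5%, 13.7%, 6.23% and 0.713%. The causes were not tested. Depth limits Grm8 most.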

Other observations

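The Ensembl identifiers in the deposited table do not go with its gene symbols. Of 39647 entries whose identifier and symbol are both known to GENCODE M21, 97 carried a matching pair, and for the 6 receptors there was no match. The counts follow the symbols. The entry with the symbol Xist had 33319 and 37467 counts in wild type 1 and SnoN cKO 2, whereas the entry with the Xist identifier had at most 2 counts in any library. Of 157 listed pathway and cell type genes, 132 reached 10 CPM when read by symbol and 95 when read by identifier. A receptor looked up by identifier in this table would return the counts of another gene.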
